A study of Mus musculus with 12 samples.

Results

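A list of 52 genes of DNA replication and of the entry from G1 into S phase was followed in mouse liver and in a mouse macrophage line, each with and without esculetin, a coumarin made by plants. The list was given as gene symbols, and all 52 matched an identifier in both count tables, which hold 55357 gene identifiers each. RNA was sequenced in 12 libraries, 3 for each of 4 groups. Liver came from wild-type male C57BL6/J mice of 8 to 9 weeks that received esculetin by gavage (90 mg/kg/d) or 2.5% Tween-80 for 7 days. All of these mice ate 10% of their energy as fat for 4 days and then 60% for 3 days, and a liver sample was, by the methods of the study, a pool of 2 mice. RAW264.7 cells, an established wild-type macrophage line, were exposed for 24 h to 25 µg/mL of DIL-oxLDL, oxidized low-density lipoprotein that carries a dye, in the presence of DMSO or of 40 µg/mL esculetin. Neither cell group lacked oxLDL and neither mouse group lacked the high-fat meals, so by the labels only esculetin differed within a table. The labels do not say whether the cell replicates were separate cultures, so p-values measure the spread between these samples, which may be technical.

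The libraries held 13752842 to 20001959 counts in the cells and 14659876 to 20346460 in the liver. In the cells, the first principal component, with 78.0% of the variance, set the groups apart. In the liver it held 40.1% and split vehicle replicate 1, at -48.0, from the other 5 libraries at -3.26 to 19.4. Levels are counts scaled to library size with edgeR's TMM factors (CPM). The cells had the 7 macrophage markers, none at 0, at a summed 2317 to 2484 CPM in the controls and 5646 to 8578 CPM with esculetin, and at most 1.02 CPM of the 6 hepatocyte markers. The liver libraries had 89673 to 117588 CPM of the hepatocyte markers and 144 to 185 CPM of the macrophage markers.

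Before a chromosome is copied, the origin recognition complex, CDC6 and CDT1 place the MCM helicase on DNA in G1, a step called licensing. Cyclin E with its kinase and other kinases then start the helicase together with CDC45 and the GINS complex, and DNA polymerases alpha, delta and epsilon copy the strands with the sliding clamp PCNA. Many of these genes are transcribed at the G1/S border by E2F factors, and proliferating cells such as macrophage lines express them highly while most hepatocytes of an adult liver rest outside the cycle.

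The cell comparison asks what esculetin changes in macrophages loaded with oxLDL. In the cells the list leaned downwards with esculetin, but not as a block. Of the 52 genes, all of which passed the filter on low counts, 27 fell, 6 rose and 19 were not called. A gene was called when its adjusted p-value was under 0.05 in edgeR's quasi-likelihood test, and over all 13277 tested genes 29.0% were called lower and 28.7% higher, so 57.7% were called in all. The log2 fold change, esculetin minus control, had a median of -0.31 over the 52 genes and of -0.01 over all tested genes, and 36 of the 52 lay below 0. The groups did not overlap for 27 genes that were lower and 8 that were higher, against 33.1% and 31.0% of all genes. In either direction 64.1% of all genes did not overlap. The methods of the study name limma with limits on p and on fold. Read here as an unadjusted limma-voom p-value under 0.05 and a fold over 1.5, such limits were passed by 38.0% of all genes and left 19 of the 52 genes lower and 2 higher. Counts taken by the 52 genes together came to 3015 ± 59.5 CPM in the controls and 2237 ± 130.4 CPM with esculetin (SD, n = 3), with no overlap. Dnmt1 held the largest part of that sum, and without it the values were 2485 ± 41.4 and 1987 ± 137 CPM. The summed macrophage markers rose beside these values, with 5 of the 7 called higher, and their part in the result was not tested. In such bulk libraries, fewer cells in S phase and less RNA of a gene per cell cannot be told apart.

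The widest falls were those of E2f2 at -1.88, Pold2 at -1.71, Cdca7 at -1.44, Lig1 at -1.24, Pold1 at -1.24, Gins1 at -1.16, Dnmt1 at -1.09 and Tk1 at -1.05 on the log2 scale. The 6 rises were those of Ccne2 at 1.08, Pcna at 0.97, Slbp at 0.57, E2f1 at 0.55, Tyms at 0.47 and Orc6 at 0.36. Genes that work together carried opposite calls: the clamp Pcna was higher while 4 of the 5 genes of its loader were lower, and E2f1 was higher while E2f2 was lower.

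**Figure D1:**
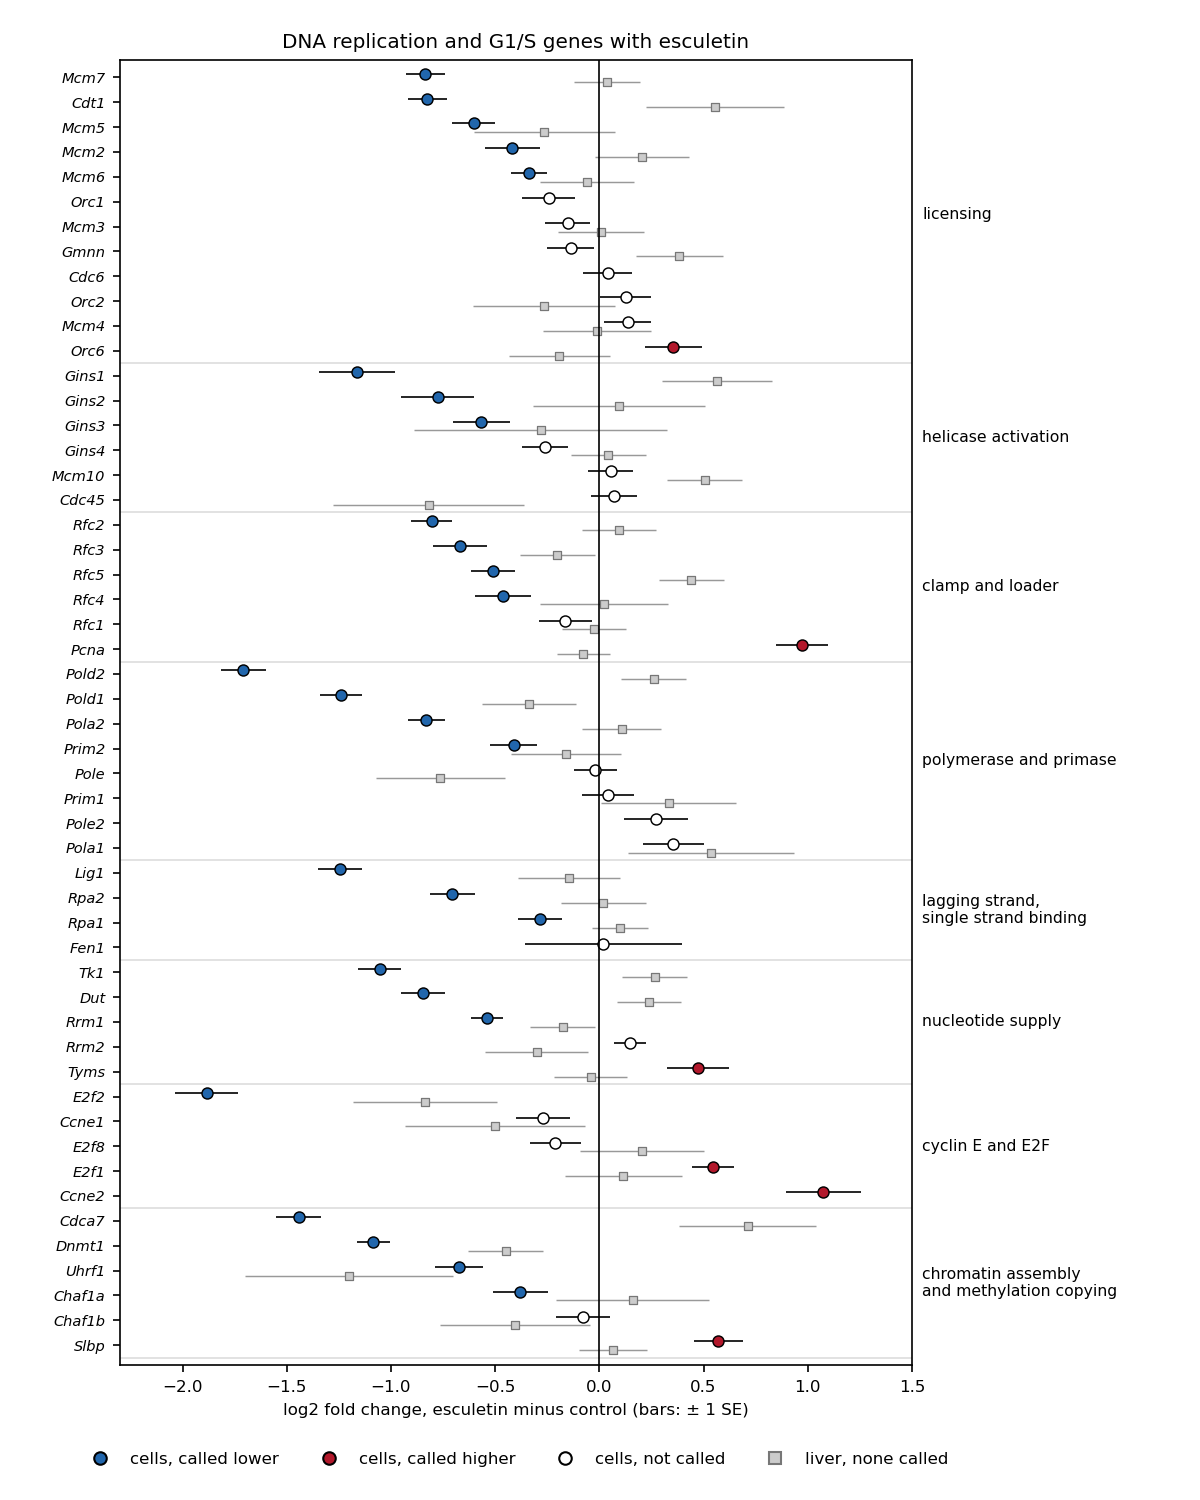
Log2 fold change (esculetin minus control, horizontal axis, bars ± 1 SE) of each gene, grouped by role, with circles for RAW264.7 cells and grey squares for the 47 genes tested in the liver. In the cells 27 circles are filled as called lower, down to -1.88 for E2f2, and 6 as called higher, up to 1.08 for Ccne2, while the liver squares lie on both sides of 0 and none was called.

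Promoters were examined for what the genes have in common in sequence. RefSeq windows of 300 bases, from 250 bases before to 50 after a transcription start (table build GRCm38.p6), were at hand for 43 of the 52 genes. They were missing for Gins1, Gins2, Gins4, Ccne2, Rfc2, Gmnn, Pole, Mcm4 and Prim2. The long form of the E2F motif was searched as TTTCCCGC, TTTCGCGC, TTTGCCGC and TTTGGCGC on both strands. It was present for 17 of the 43 genes, or 39.5% (95% exact interval 25.0 to 55.6), and for 2.6% of all 27025 genes of the table. It was not particular to this list. Of the neighbouring lists read below, 26.5% of other replication factors (12.9 to 44.4), 30.0% of other G1/S control genes (11.9 to 54.3) and 19.2% of histone genes (9.63 to 32.5) held it. In the 43 genes there were 24 matches, and 14 of them lay within 50 bases of the start on either side. The 4 windows below are those of the genes with a long-form match and the smallest p-values in the cells. They are shown because they hold the letters around a RefSeq start of genes that fell by 1.09 to 1.88. Each window was found once in GRCm39, the build to which the RNA-seq reads were mapped by the methods of the study, and is written 5′ to 3′ along the strand of its gene, with the long-form matches in capitals. A match on the opposite strand appears as its reverse complement.
E2f2, chr4:135899335-135899634, plus strand: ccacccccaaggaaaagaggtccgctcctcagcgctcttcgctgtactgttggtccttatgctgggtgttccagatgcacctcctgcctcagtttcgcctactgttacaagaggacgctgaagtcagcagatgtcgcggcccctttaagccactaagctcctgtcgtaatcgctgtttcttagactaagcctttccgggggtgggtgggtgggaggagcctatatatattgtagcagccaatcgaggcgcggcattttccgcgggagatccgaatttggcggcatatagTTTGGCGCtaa
Cdca7, chr2:72306313-72306612, plus strand: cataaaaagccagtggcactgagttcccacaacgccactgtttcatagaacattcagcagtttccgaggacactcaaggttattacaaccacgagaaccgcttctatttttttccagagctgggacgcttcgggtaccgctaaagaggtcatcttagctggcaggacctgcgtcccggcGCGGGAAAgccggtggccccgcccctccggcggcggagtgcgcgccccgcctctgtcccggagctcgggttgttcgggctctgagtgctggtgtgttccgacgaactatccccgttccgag
Dnmt1, chr9:20863870-20864169, minus strand: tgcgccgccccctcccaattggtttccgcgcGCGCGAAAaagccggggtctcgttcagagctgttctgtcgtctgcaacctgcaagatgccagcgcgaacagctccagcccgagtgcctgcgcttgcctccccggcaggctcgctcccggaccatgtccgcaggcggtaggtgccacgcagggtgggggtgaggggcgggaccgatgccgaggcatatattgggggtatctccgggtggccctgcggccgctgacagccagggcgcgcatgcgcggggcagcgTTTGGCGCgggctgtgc
Pold1, chr7:44198190-44198489, minus strand: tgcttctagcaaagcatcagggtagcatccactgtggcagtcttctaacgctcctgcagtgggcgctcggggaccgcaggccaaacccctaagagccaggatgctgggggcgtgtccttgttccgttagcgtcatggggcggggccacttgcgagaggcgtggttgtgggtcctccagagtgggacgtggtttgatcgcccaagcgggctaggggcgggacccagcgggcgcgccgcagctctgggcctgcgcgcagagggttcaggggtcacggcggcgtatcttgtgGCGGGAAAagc
The match begins 39 bases after the start in E2f2 and 71 before it in Cdca7. Dnmt1 holds a pair of matches, 219 bases before and 33 after the start, and in Pold1 the match begins 39 bases after it. These distances are from the RefSeq start, and all 4 windows overlap the span that GENCODE gives the gene. The Dnmt1 window lies wholly inside that span, which for this minus-strand gene begins at 20871184. The Cdca7 span begins at 72306341, inside its window. The matches before the RefSeq start of Dnmt1 and Cdca7 therefore lie within the GENCODE genes.

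A shorter E2F form, which drops the leading T of the long form and is contained in it, was present for 62.8% of the 43 genes and 10.9% of all genes. The CCAAT box (CCAAT) was present for 62.8% and 41.1%. The CHR element (TTTGAA or TTCGAA), known from genes of mitosis, was present for 23.3% of the 43 genes and 21.7% of all genes, while 15 of 19 mitosis genes with a window held it, or 78.9%. Among the genes that fell in the cells, 12 of 23 with a window had the long E2F form. Among those that were not called 5 of 15 had it, and among those that rose 0 of 5, for which the exact 95% interval reaches 52.2%. The short form was present for 16 of the 23 genes that fell, for 11 of the 15 that were not called and for 0 of the 5 that rose. These splits were not tested, and a missing match says only that these letters are absent from these 300 bases.

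**Figure D2:**
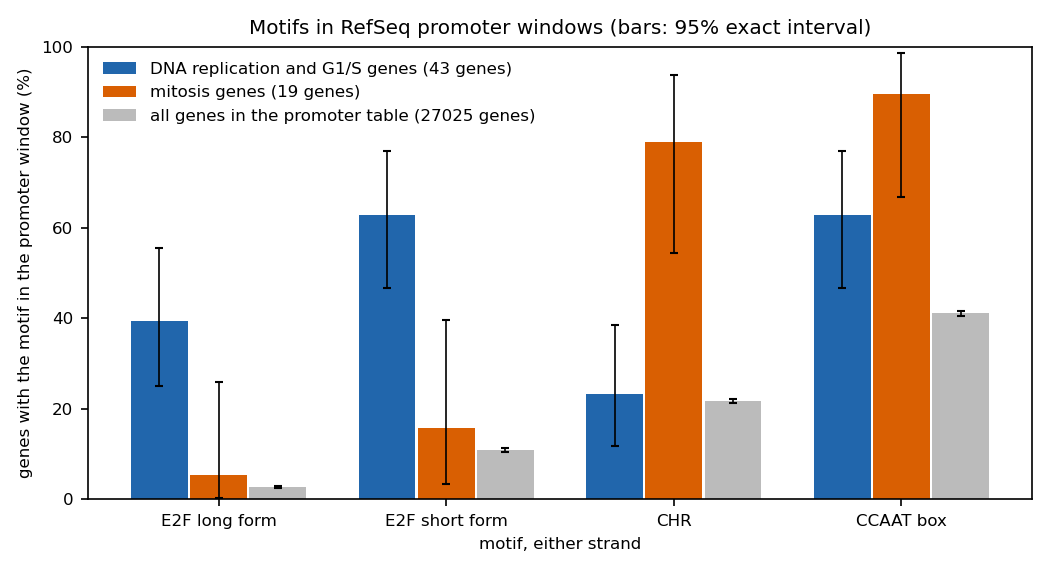
Share of genes (vertical axis, %) with each motif in the RefSeq promoter window, on either strand, for the 43 replication and G1/S genes with a window, 19 mitosis genes and all 27025 genes of the table; error bars are 95% exact intervals. The long E2F form is at 39.5%, 5.26% and 2.6% in these lists, and the CHR element at 23.3%, 78.9% and 21.7%. Not drawn are other replication factors, other G1/S control genes and histone genes, with the long E2F form at 26.5%, 30.0% and 19.2%.

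Licensing genes were mostly lower or not called, with 5 of 12 called lower, 1 higher and a median of -0.20. Mcm7, a subunit of the MCM helicase ring (ENSMUSG00000029730, chromosome 5, 138162844 to 138170684, GRCm39), was at 107, 109.7 and 115 CPM in the control libraries and 55.5, 61.5 and 68.5 CPM in the esculetin libraries. All esculetin values lay below all control values (log2 fold change -0.84, SE 0.09, adjusted p 2.27e-05). Cdt1, which brings the helicase to the origin, was at 77.4, 78.6 and 84.4 CPM in the controls against 44.1, 41.6 and 49.9 CPM, again without overlap (log2 fold change -0.83, SE 0.09, adjusted p 2.47e-05). The other called ring subunits fell by 0.60 for Mcm5, 0.42 for Mcm2 and 0.34 for Mcm6 on the log2 scale. The Mcm2 groups overlapped, because esculetin replicate 3, at 56.5 CPM, lay above the lowest control at 55.4 CPM.

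The remaining ring subunits were not called. Mcm3 was at 88.6, 99.3 and 98.3 CPM in the controls against 77.5, 80.01 and 99.8 CPM (log2 fold change -0.15, SE 0.11, adjusted p 0.245). Mcm4 was at 48.98, 44.9 and 46.3 CPM in the controls against 46.8, 46.9 and 60.2 CPM (log2 fold change 0.14, SE 0.11, adjusted p 0.322). In both genes esculetin replicate 3 was the highest library of its group, and the log2 fold changes of the 6 ring genes ran from -0.84 to 0.14. Orc6, a subunit of the origin recognition complex, was the licensing gene that rose, at 15.8, 13.98 and 15.2 CPM in the controls against 21.7, 16.2 and 19.7 CPM (log2 fold change 0.36, SE 0.13, adjusted p 0.0405). Its groups did not overlap, yet its call was lost in 8 of 15 alternative settings, among them every omission of a library other than esculetin replicate 2. Orc1, the largest subunit of that complex, was at 15.3, 15.01 and 13.3 CPM in the controls against 11.3, 12.6 and 12.9 CPM (log2 fold change -0.24, SE 0.13, adjusted p 0.121). Its groups did not overlap either, but the change was not called.

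Orc2, a further subunit, was at 32.3, 29.96 and 24.95 CPM in the controls against 29.3, 32.4 and 33.4 CPM (log2 fold change 0.13, SE 0.12, adjusted p 0.392). Cdc6, which joins the complex to load the helicase, was at 18.3, 19.3 and 16.9 CPM in the controls against 19.9, 17.3 and 18.8 CPM (log2 fold change 0.04, SE 0.12, adjusted p 0.785). Gmnn, whose product geminin holds CDT1 in check, was at 26.6, 25.9 and 22.9 CPM in the controls against 22.03, 22.1 and 24.3 CPM (log2 fold change -0.14, SE 0.11, adjusted p 0.311). In all 3 genes the groups overlapped, and the 95% intervals of the log2 fold change were -0.11 to 0.36, -0.19 to 0.27 and -0.36 to 0.08.

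Helicase activation was divided between the GINS genes and the others. Of the 6 genes 3 fell, none rose and the median was -0.41. Gins1, a subunit of the GINS complex that binds the MCM ring (ENSMUSG00000027454, chromosome 2, 150747320 to 150773202), was at 11.6, 10.7 and 9.10 CPM in the control libraries and 5.64, 4.16 and 4.24 CPM in the esculetin libraries. The groups lay apart (log2 fold change -1.16, SE 0.18, adjusted p 0.000229). Gins2 was at 10.7, 13.6 and 16.6 CPM in the controls against 8.12, 8.59 and 7.25 CPM, also without overlap (log2 fold change -0.78, SE 0.18, adjusted p 0.00277). Gins3 fell by 0.57 (SE 0.14, adjusted p 0.00425).

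The last GINS subunit, Gins4, was at 23.999, 22.3 and 21.7 CPM in the controls against 18.003, 18.4 and 20.2 CPM, lower in all esculetin libraries than in any control, and was not called (log2 fold change -0.26, SE 0.11, adjusted p 0.0632). Cdc45, the partner of GINS in the active helicase, was at 20.3, 22.2 and 20.9 CPM in the controls against 21.1, 21.5 and 23.9 CPM (log2 fold change 0.07, SE 0.11, adjusted p 0.607). Mcm10, which helps the helicase to start, was at 20.6, 20.6 and 19.4 CPM in the controls against 21.9, 20.3 and 20.7 CPM (log2 fold change 0.05, SE 0.11, adjusted p 0.688). For Cdc45 and Mcm10 the groups overlapped, with intervals of -0.15 to 0.29 and -0.16 to 0.26.

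The clamp and its loader moved in opposite directions. Pcna, the ring that tethers the polymerases to DNA and also serves DNA repair (ENSMUSG00000027342, chromosome 2, 132091082 to 132095234), was at 112, 105 and 113 CPM in the control libraries and 177, 207 and 263 CPM in the esculetin libraries. Every esculetin library lay above every control, and esculetin replicate 3 stood highest (log2 fold change 0.97, SE 0.13, adjusted p 6.05e-05). Of the loader genes, Rfc2 was at 52.3, 58.8 and 57.5 CPM in the controls against 31.6, 30.1 and 34.7 CPM (log2 fold change -0.81, SE 0.10, adjusted p 4.40e-05). Rfc3 was at 16.8, 15.1 and 16.2 CPM in the controls against 9.22, 9.95 and 11.04 CPM (log2 fold change -0.67, SE 0.13, adjusted p 0.000979). For both genes all esculetin libraries were below all controls, and Rfc4 and Rfc5 fell as well, by 0.46 and 0.51. Rfc1, the large loader subunit, was at 121, 83.04 and 88.9 CPM in the controls against 86.2, 88.6 and 86.5 CPM and was not called (log2 fold change -0.16, SE 0.13, adjusted p 0.289). Its spread came from control replicate 1, the highest of its 6 libraries. Annotated processed copies of Pcna held at most 32 counts in a cell library.

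Of the 8 polymerase and primase genes 4 fell and none rose, with a median of -0.22, and the falls were those of polymerase delta and of Pola2 and Prim2, which do not carry the catalytic sites of the alpha-primase complex. Pold2, the accessory subunit of polymerase delta (ENSMUSG00000020471, chromosome 11, 5822180 to 5828292), was at 48.1, 56.7 and 55.3 CPM in the control libraries and 16.7, 16.1 and 16.2 CPM in the esculetin libraries. This was a fall to less than any control by a wide gap (log2 fold change -1.71, SE 0.11, adjusted p 4.13e-07). Pold1, the catalytic subunit of the same enzyme, was at 60.1, 61.6 and 65.2 CPM in the controls against 28.8, 26.2 and 24.1 CPM (log2 fold change -1.24, SE 0.10, adjusted p 2.22e-06). Pola2 of polymerase alpha fell by 0.83 (SE 0.09, adjusted p 1.52e-05) and Prim2 of the primase by 0.41 (SE 0.11, adjusted p 0.00897).

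The catalytic subunits of the alpha-primase complex were not called. Pola1, the catalytic subunit of polymerase alpha, was at 18.97, 13.6 and 14.8 CPM in the controls against 22.3, 18.1 and 20.1 CPM (log2 fold change 0.35, SE 0.15, adjusted p 0.058). It became called, as higher, in 6 of 15 alternative settings. Prim1, the primase that lays the RNA primer, was at 20.8, 17.8 and 18.4 CPM in the controls against 21.4, 20.2 and 17.2 CPM (log2 fold change 0.04, SE 0.13, adjusted p 0.797). Polymerase epsilon, the main enzyme of the leading strand, showed no called change in either of its genes. Pole was at 32.2, 34.96 and 35.7 CPM in the controls against 34.9, 30.8 and 35.7 CPM, with overlap and an interval of -0.22 to 0.19 (log2 fold change -0.02, SE 0.10, adjusted p 0.885). Pole2, its accessory subunit, was at 8.45, 7.64 and 8.76 CPM in the controls against 9.07, 11.6 and 9.37 CPM, with every esculetin library above every control (log2 fold change 0.27, SE 0.15, adjusted p 0.152).

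On the lagging strand and on single-stranded DNA, 3 of 4 genes fell, against 29.0% of all genes, and the median was -0.49. Lig1, the ligase that joins Okazaki fragments (ENSMUSG00000056394, chromosome 7, 13011239 to 13045350), was at 79.2, 92.4 and 89.3 CPM in the control libraries and 41.3, 34.4 and 34.5 CPM in the esculetin libraries. The groups did not overlap (log2 fold change -1.24, SE 0.10, adjusted p 2.82e-06). Rpa2, a subunit of the protein that coats single strands, was at 32.3, 31.5 and 32.6 CPM in the controls against 19.98, 21.1 and 18.2 CPM (log2 fold change -0.71, SE 0.11, adjusted p 0.000188). Rpa1, its large subunit, fell by 0.28 (SE 0.11, adjusted p 0.0378), with overlapping groups. Fen1, the nuclease that trims fragment ends, was counted very low at 3.52, 2.69 and 2.63 CPM in the controls against 2.42, 1.43 and 4.96 CPM, between 21 and 89 counts per library. Its interval of -0.72 to 0.76 was the widest of the list, and 59.0% of its exon bases are shared with an antisense gene.

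Nucleotide supply held 3 falls, 1 rise and a gene that was not called, where 29.0% of all genes were lower and 28.7% higher. The median over the 5 genes was -0.54. Tk1, the thymidine kinase of the salvage route (ENSMUSG00000025574, chromosome 11, 117702770 to 117717042), was at 51.6, 51.4 and 53.9 CPM in the control libraries and 27.96, 24.1 and 23.6 CPM in the esculetin libraries. All esculetin libraries were below all controls (log2 fold change -1.05, SE 0.10, adjusted p 8.29e-06). Rrm1, the large subunit of ribonucleotide reductase, was at 175, 179 and 182 CPM in the controls against 123, 126 and 119 CPM (log2 fold change -0.54, SE 0.08, adjusted p 0.000112). Dut, which removes dUTP, fell by 0.85 (SE 0.11, adjusted p 4.43e-05). Rrm2, the small subunit of the reductase, was at 92.2, 90.1 and 86.7 CPM in the controls against 101, 97.7 and 98.99 CPM (log2 fold change 0.15, SE 0.08, adjusted p 0.124). Its groups did not overlap and it lay on the other side of 0 from Rrm1, but it was not called. Tyms, which makes thymidylate, rose, at 7.31, 7.96 and 8.46 CPM in the controls against 12.1, 9.68 and 11.2 CPM (log2 fold change 0.47, SE 0.15, adjusted p 0.0179).

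Cyclin E and E2F genes showed the widest range of any role, from -1.88 to 1.08. Of the 5 genes 2 were called higher and 1 lower, against 28.7% and 29.0% of all genes. E2f2, an activating E2F (ENSMUSG00000018983, chromosome 4, 135899585 to 135923368), was at 65.2, 67.4 and 69.7 CPM in the control libraries and 23.1, 13.9 and 17.8 CPM in the esculetin libraries. This was the largest fall among the 52 genes (log2 fold change -1.88, SE 0.15, adjusted p 2.15e-06). E2f1, an activating E2F too (ENSMUSG00000027490, chromosome 2, 154401326 to 154411812), was at 34.1, 33.4 and 37.3 CPM in the control libraries and 46.98, 50.6 and 55.4 CPM in the esculetin libraries. Every esculetin library lay above every control, opposite to E2f2 (log2 fold change 0.55, SE 0.10, adjusted p 0.000753). Ccne2, the gene of cyclin E2 (ENSMUSG00000028212, chromosome 4, 11190303 to 11204947), was at 12.6, 8.34 and 8.51 CPM in the control libraries and 19.3, 18.3 and 24.4 CPM in the esculetin libraries. It was the largest rise of the list, without overlap (log2 fold change 1.08, SE 0.18, adjusted p 0.000388), and its antisense neighbour Ints8, with which it shares 15.2% of its exon bases, was called higher by 0.50. Ccne1 was at 22.9, 23.1 and 22.1 CPM in the controls against 16.5, 17.5 and 22.3 CPM (log2 fold change -0.27, SE 0.13, adjusted p 0.0977). E2f8, a repressing E2F, was at 26.02, 25.3 and 24.8 CPM in the controls against 23.3, 24.1 and 18.5 CPM (log2 fold change -0.21, SE 0.12, adjusted p 0.162). Neither of these was called, although all esculetin values of E2f8 were below its controls.

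Genes that rebuild chromatin and copy DNA methylation behind the fork were lower for 4 of 6, against 29.0% of all genes, with a median of -0.53. Dnmt1, the methyltransferase that keeps up CpG methylation (ENSMUSG00000004099, chromosome 9, 20817945 to 20871184), was at 509.8, 537 and 546 CPM in the control libraries and 259, 249 and 242 CPM in the esculetin libraries. It went from 531 ± 18.6 to 250.1 ± 8.42 CPM (SD, n = 3), the largest loss in CPM of the list (log2 fold change -1.09, SE 0.08, adjusted p 1.02e-06). Cdca7, which acts with the remodeller HELLS, was at 33.2, 36.04 and 34.9 CPM in the controls against 13.03, 12.3 and 12.99 CPM (log2 fold change -1.44, SE 0.11, adjusted p 1.30e-06). Uhrf1, which guides DNMT1 to new DNA, fell by 0.67 (SE 0.12, adjusted p 0.000449) and Chaf1a of chromatin assembly factor 1 by 0.38 (SE 0.13, adjusted p 0.0264). Chaf1b, the partner of Chaf1a, was at 18.2, 19.8 and 21.1 CPM in the controls against 18.3, 16.3 and 21.4 CPM with overlap (log2 fold change -0.08, SE 0.13, adjusted p 0.631). Slbp, which binds the stem-loop of histone mRNAs, was at 34.003, 32.9 and 32.3 CPM in the controls against 42.1, 48.1 and 56.8 CPM. It rose, against the direction of the others in its role, and the groups did not overlap (log2 fold change 0.57, SE 0.12, adjusted p 0.00153).

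**Figure D3:**
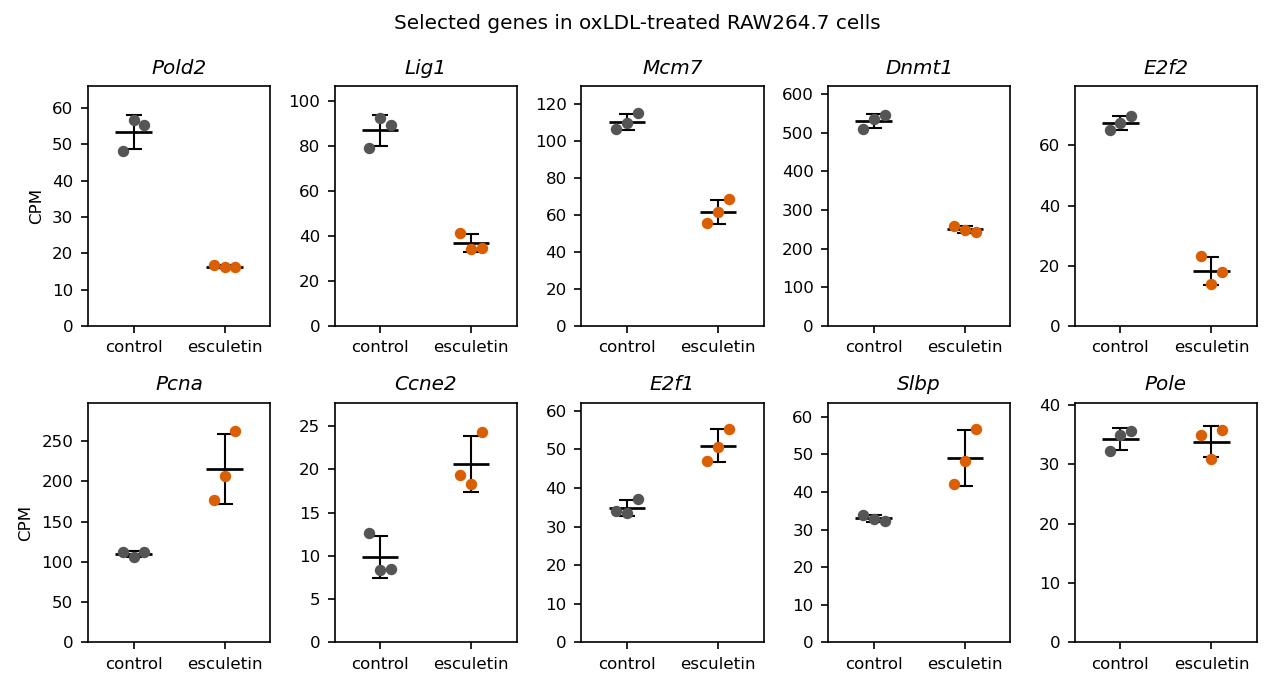
CPM (vertical axes from 0) of 10 genes in each oxLDL-treated RAW264.7 library; dots are libraries, horizontal bars group means and error bars SD (n = 3). Pold2, Lig1, Mcm7, Dnmt1 and E2f2 lie lower with esculetin without overlap, Pcna, Ccne2, E2f1 and Slbp lie higher without overlap, and Pole overlaps.

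Between genes, levels were compared per kilobase of exon. In the control cells Dnmt1 had the highest level, 62.4 CPM per kb, ahead of Pcna at 45.8 CPM per kb and Rrm2 at 27.0 CPM per kb. With esculetin Pcna stood at 89.8 CPM per kb, Rrm2 at 29.9 CPM per kb and Dnmt1 at 29.4 CPM per kb. Of the 52 genes, 27 share exon bases with a neighbour, and 14 share at least 10%, mostly on the opposite strand. Whether counting used the strand is not given in the sources used here, so part of the counts of these genes cannot be assigned with certainty. Among the called genes this holds for Gins2 (67.3% shared with Gse1), Chaf1a (51.0% with Ubxn6), Rfc5 (41.4% with Wsb2), Rfc2 (24.3% with Lat2), Pcna (20.8% with AV099323), Rfc4 (16.5% with Eif4a2) and Ccne2. Gse1 itself fell by 0.40 in the cells, whereas Ubxn6, Lat2 and Eif4a2 were called higher, by 0.38, 0.53 and 0.48, opposite to the genes they overlap. Rfc4 also shares 12.5% with 6330408M09Rik, which was called higher by 4.50.

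In the liver no change of these genes was called. Of the 52 genes 47 passed the filter, and edgeR called 0, where of 12813 genes in all it called 0.0859%, 0.0546% lower and 0.0312% higher. DESeq2 and limma-voom called 0 of the 47 as well. Without adjustment 6 genes had a p-value under 0.05, against 8.37% of all genes, and the median log2 fold change was 0.02 against -0.02 for all genes. Esculetin values were all above the vehicle values for 5 genes and all below for 6, against 6.52% and 7.95% of all genes, or 14.5% together. The limma-voom limits on p and fold were passed by 4 of the 47 genes and by 3.89% of all genes. The summed level was 378 ± 32.02 CPM with vehicle and 412 ± 24.3 CPM with esculetin (SD, n = 3), with overlap. Of this sum Mcm10 held 53.4 to 105 CPM. Orc1, Cdc6, Pole2, Fen1 and Ccne2 did not pass the filter, with at most 15 counts in any liver library. Orc1 had 7, 3 and 3 counts with vehicle and 1, 0 and 0 with esculetin.

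The 5 liver genes with the smallest p-values pointed in both directions. Mcm10 was at 53.4, 56.1 and 53.5 CPM with vehicle and 105, 63.4 and 63.1 CPM with esculetin, with esculetin replicate 1 far above the rest (log2 fold change 0.51, SE 0.18, unadjusted p 0.0153, adjusted p 0.478). Rfc5 was at 9.71, 10.5 and 12.6 CPM with vehicle and 14.5, 14.1 and 15.9 CPM with esculetin, without overlap (log2 fold change 0.44, SE 0.16, unadjusted p 0.0157, adjusted p 0.478). Dnmt1 was at 7.86, 10.4 and 10.4 CPM with vehicle and 6.70, 6.75 and 7.57 CPM with esculetin, lower in every esculetin library (log2 fold change -0.45, SE 0.18, unadjusted p 0.0285, adjusted p 0.537). Pole was at 2.64, 2.27 and 2.62 CPM with vehicle and 1.74, 0.974 and 1.68 CPM with esculetin, also lower in every esculetin library, with 15 to 46 counts behind these values (log2 fold change -0.76, SE 0.31, unadjusted p 0.0292, adjusted p 0.537). E2f2 was at 3.07, 3.01 and 2.51 CPM with vehicle and 2.29, 1.62 and 0.841 CPM with esculetin, and esculetin replicate 3 was the lowest (log2 fold change -0.84, SE 0.34, unadjusted p 0.0312, adjusted p 0.544). Uhrf1, the remaining gene at an unadjusted p-value under 0.05, had only 3 to 15 counts per library (log2 fold change -1.20). None of these passed the adjustment. Among genes that were called in the cells, the liver 95% interval of the log2 fold change was -0.33 to 0.18 for Pcna, -0.27 to 0.34 for Mcm7 and -0.62 to 0.33 for Lig1. Per kilobase, Pcna was the highest of the 52 genes in the vehicle livers, at 9.31 CPM per kb, and Mcm10 next, at 5.39 CPM per kb.

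**Figure D4:**
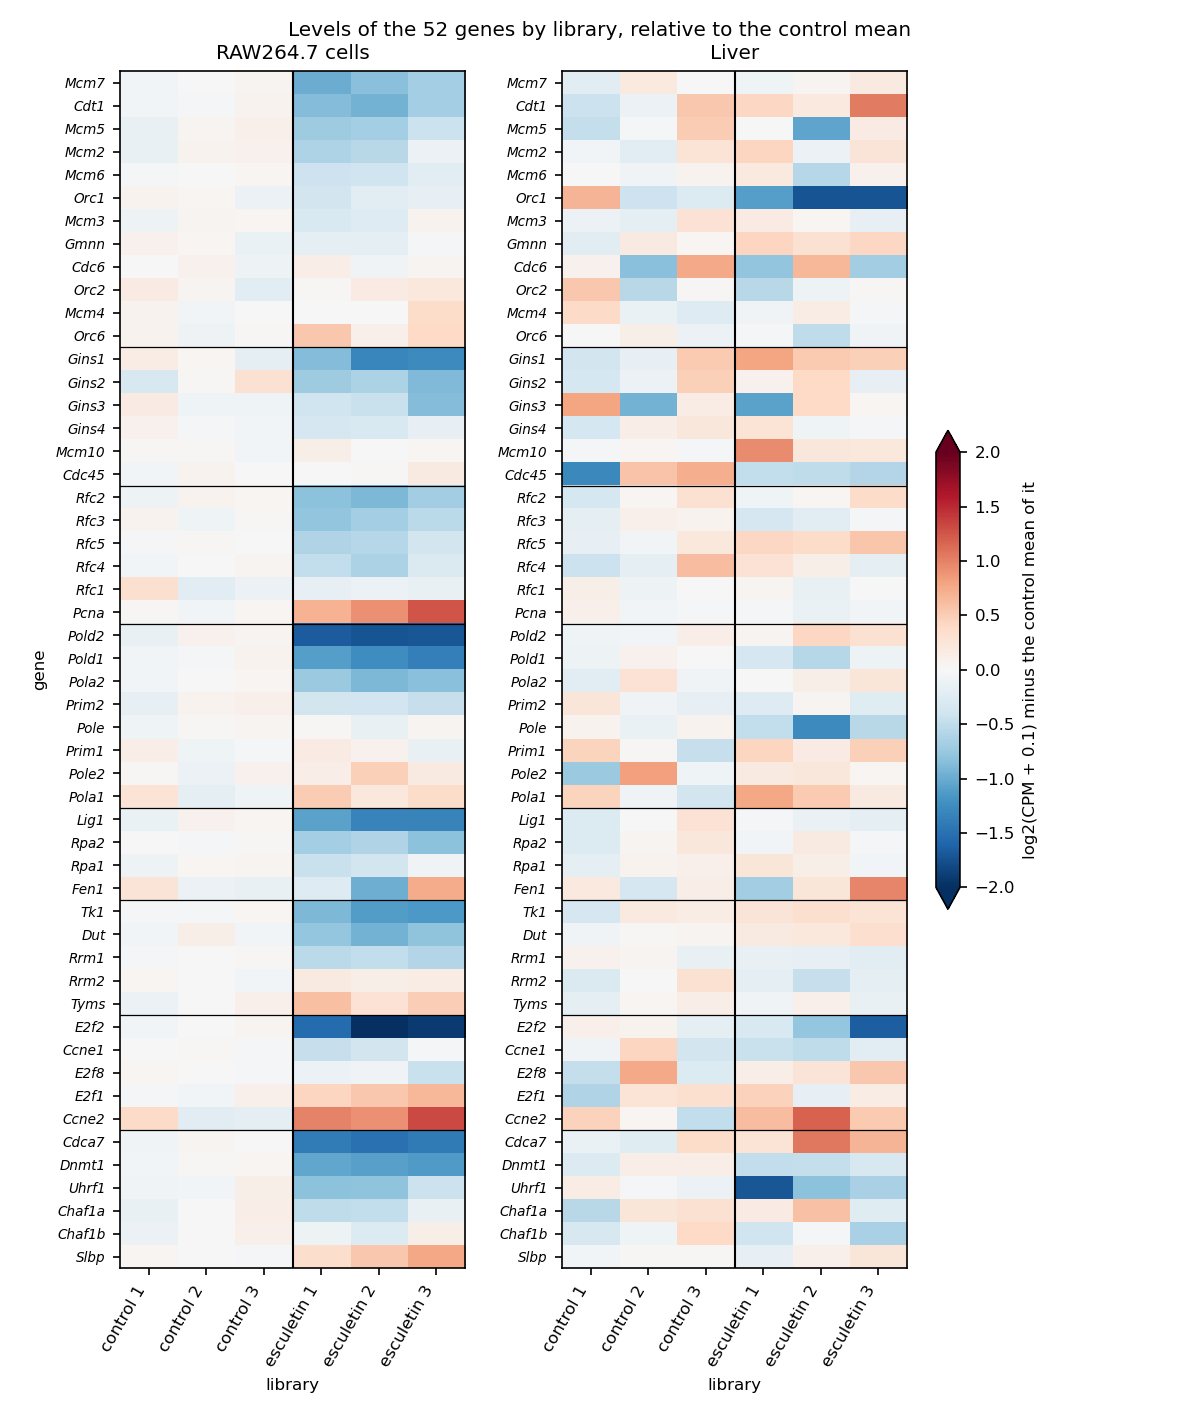
Levels of the 52 genes in each library as log2(CPM + 0.1) minus the mean of the control libraries of the same table (colour scale from -2 to 2, blue lower, red higher), with horizontal lines between roles. In the cells the 3 esculetin columns are blue for most rows and red for Pcna, Ccne2, E2f1 and Slbp. Replicate 3 departs from the other esculetin columns in some rows, such as Fen1 with 2.42, 1.43 and 4.96 CPM. The liver columns vary within groups, most in genes with few counts such as Orc1 with 7, 3, 3, 1, 0 and 0 counts.

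The difference between the effects in cells and liver was tested in 1 model over all 12 libraries. Dose, route and duration differed between the tables, so the values stand side by side as those of separate experiments. The difference, cells minus liver, was called lower for 16 and higher for 1 of the 47 genes tested in both tables, against 19.4% and 17.1% of 10449 such genes, or 36.5% together. Its median was -0.43 over the 47 genes and -0.01 over all genes tested in both. Orc1, Cdc6, Pole2, Fen1 and Ccne2 entered the joint model only through the cells, and of these Orc1 was called higher, on 0 to 7 counts per liver library. Over all 15709 genes of the joint model 13.7% were called lower and 13.4% higher, or 27.1% together. Of the called genes, Rrm1 lost its call in 19 of 21 alternative settings and E2f2 in 9. The smallest p-value was that of Pold2, at -1.71 in the cells and 0.26 in the liver, a difference of -2.01 (SE 0.19, adjusted p 3.61e-06). Cdca7 stood at -1.44 and 0.71, a difference of -2.19 (SE 0.30, adjusted p 7.85e-05). For Tk1 the values were -1.05 and 0.27, a difference of -1.36 (SE 0.19, adjusted p 8.90e-05), and for Dut they were -0.85 and 0.24, a difference of -1.13 (SE 0.17, adjusted p 0.000197). In all 4 genes the liver value lay above 0 and was not called. Pcna had the opposite sign of difference, with 0.97 and -0.08, a difference of 1.01 (SE 0.18, adjusted p 0.000628).

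Behind these values were liver levels of 11.1, 11.3 and 12.8 CPM with vehicle and 12.2, 15.6 and 14.4 CPM with esculetin for Pold2. Cdca7 was at 1.29, 1.18 and 1.86 CPM with vehicle and 1.74, 3.05 and 2.33 CPM with esculetin, and Tk1 at 16.3, 23.8 and 23.02 CPM with vehicle and 24.9, 25.9 and 25.2 CPM with esculetin. The Tk1 groups did not overlap in the liver, with the esculetin values higher, whereas those of Pold2 and Cdca7 overlapped. Dut was at 9.15, 9.77 and 10.1 CPM with vehicle and 10.9, 11.2 and 12.2 CPM with esculetin, higher in every esculetin library. Pcna was at 24.02, 21.4 and 21.6 CPM with vehicle and 21.7, 20.3 and 21.5 CPM with esculetin, which overlapped.

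Neighbouring gene lists were read beside the 52 genes by their counts and medians. In the cells 29.0% of all genes were called lower and 28.7% higher, the shares to set beside the counts here. Of 41 other replication factors 22 were lower and 7 higher in the cells, with a median of -0.40. Dctpp1, which removes unwanted dCTP, and Rnaseh2a, a subunit of the enzyme that cuts RNA from DNA, fell most, by 1.49 and 1.24. Pole4, a histone-fold subunit of polymerase epsilon, and Donson, a fork protein, rose most, by 1.20 and 0.79. Of 28 tested G1/S control genes 19 were lower and 5 higher, with a median of -0.42. Cdkn2c, an inhibitor of the cyclin D kinases, and Ccna2, cyclin A2, fell by 1.97 and 1.58, while Myc and Ccnd1, cyclin D1, rose by 1.74 and 0.91. Ccnd1 was at 248, 273 and 270.2 CPM in the controls against 381, 489.7 and 619 CPM. The cyclins D1 and E2 were thus higher with esculetin and cyclin A2 lower, while Ccne1 of cyclin E1 was not called, at -0.27. The other D cyclins of that list are not named by the rule used here.

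Mitosis genes were lower almost throughout, with 21 of 22 called lower, against 29.0% of all genes, none higher and a median of -1.72. Cdc20, which activates the anaphase-promoting complex, was at 138, 155 and 147 CPM in the controls against 21.4, 21.3 and 16.95 CPM (log2 fold change -2.89, SE 0.11, adjusted p 3.15e-08). Ccnb2, cyclin B2, fell by 2.70 (SE 0.17, adjusted p 3.49e-07). The median of the 52 replication and G1/S genes, at -0.31, lay between that of the mitosis genes and that of all genes, at -0.01. This difference between lists was not tested.

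Histone genes whose transcription follows replication were mostly too low to test. Of 62 genes 49 did not pass the filter, and of the 13 that did, 4 had fewer than 10 counts in every control library and so passed through the esculetin libraries, which is why no tally over the 13 is given. Summed over all 62 genes without a filter, the level in the cells was 59.8, 59.1 and 53.4 CPM in the controls and 82.1, 87.6 and 109.02 CPM with esculetin, with no overlap. H2bc21, itself called lower, held a large part of the control sums, so leaving it out widens the gap. Without it the level was 22.7, 25.4 and 21.3 CPM against 72.3, 80.7 and 102 CPM. H4c9 was at 1.71, 1.40 and 1.41 CPM in the controls against 14.1, 16.8 and 21.1 CPM (log2 fold change 3.53, SE 0.21, adjusted p 2.43e-07). H4c8 had 0, 2 and 3 counts in the controls and 34, 36 and 51 with esculetin, too few in the controls for a fold. H2bc21 fell by 2.10 (SE 0.15, adjusted p 7.79e-07). These genes are near-identical copies with mRNAs that mostly lack a poly(A) tail, and how RNA was selected and how multi-mapping reads were counted are not given in the sources used here, so their values are uncertain. In the liver edgeR called 0 of the 81 tested genes of these 4 lists, against 0.0859% of all genes. Before adjustment 5 had a p-value under 0.05, against 8.37% of all genes. DESeq2 called 1, where of all 12813 genes it called 48 higher and 50 lower, and limma-voom called 0. The 62 histone genes summed there to 151, 169 and 183 CPM with vehicle and 200, 190 and 201 CPM with esculetin, without overlap. Most of this was H2bc4, named outside the rule, at means of 152 and 177 CPM, and the sum was not tested.

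**Figure D5:**
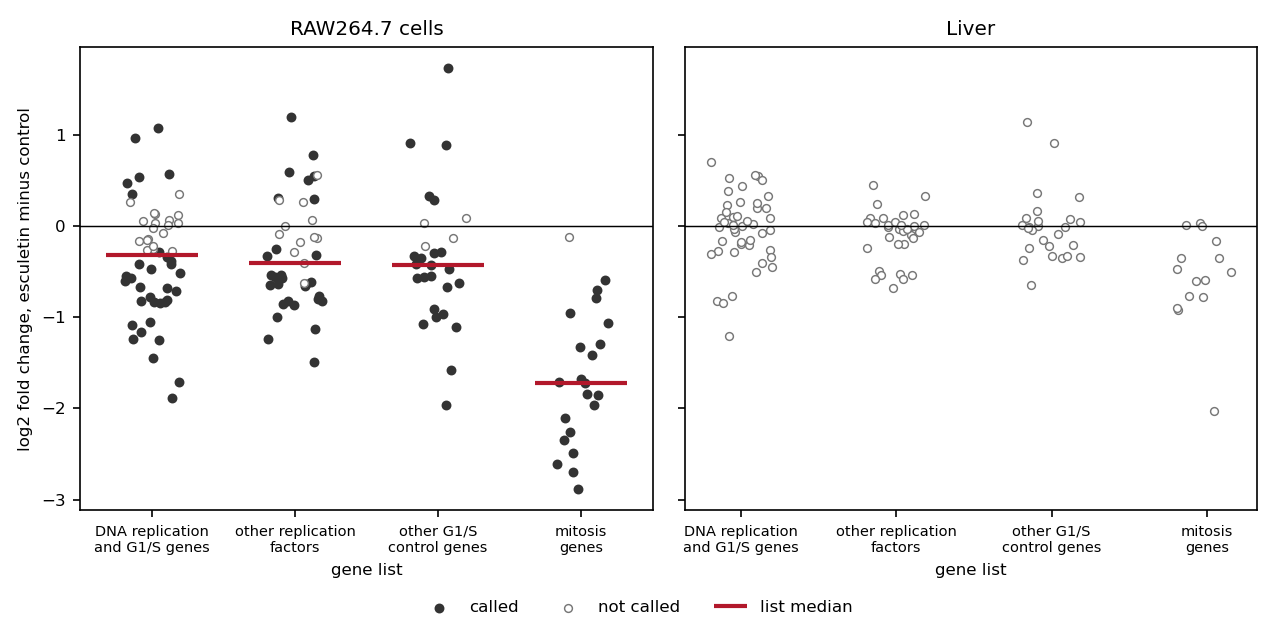
Log2 fold change (esculetin minus control, vertical axis) of every tested gene of 4 lists in cells and liver; filled dots were called, open dots were not, and the red bar is the list median in the cells. These medians are -0.31, -0.40, -0.42 and -1.72 from left to right, and no dot is filled in the liver.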

How the data were processed

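RNA-seq was analysed from 2 tables, for liver and for RAW264.7 cells, with 6 libraries each. Both tables, as deposited, hold whole counts of reads per gene that the authors did not normalize. Per the submitters' processing notes, HISAT2 2.2.1 and featureCounts were used. These notes list GRCm39 and mm10 without a role, and by the methods of the study RNA-seq reads were mapped to GRCm39. The strand setting, the handling of reads with several places and the annotation release are not given in the sources used here, so overlapping genes and copies may share counts. Of 55357 identifiers per table, 54749 matched GENCODE release 39, which gave symbols and coordinates.

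Each table was fitted with edgeR 4.0.16 in R 4.3.3 (filterByExpr, TMM factors, quasi-likelihood test, treatment as the only term), and the 12 libraries jointly for the difference between cells and liver. P-values were two-sided and adjusted over all tested genes by Benjamini-Hochberg. The SE was taken as log2 fold change divided by the root of F, and 95% intervals are 1.96 SE. An exact permutation test of 3 against 3 libraries cannot fall below 0.1. The scripts were tested on simulated counts with known changes and a single spread for all genes. Changes of 1.5-fold were recovered for 67.9% of changed genes in the cells, 23.9% in the liver and 7.35% in the difference. For 2-fold changes the shares were 100%, 86.2% and 43.1%. Of the calls 3.7%, 0.704% and 7.45% were false. Changed genes were drawn from well-counted genes, while some members had few counts in the liver. The members and lists were chosen with earlier results of these data known. Library values were given for the 2 members of each role with the smallest p-values, for those opposite to their role or not called, and for the 5 smallest p-values in the liver and in the difference, and of each further list the 2 largest called rises and falls were named. Totals per library limit the precision, and exact intervals of shares cover counting error only. Alternatives were other scalings, filters and tests (DESeq2 1.42.0, limma-voom with limma 3.58.1), a fold criterion after the methods of the study (limma p under 0.05 and fold over 1.5, where voom and the unadjusted p were chosen here), a replicate block and the omission of each library. Replicates differed by more than sampling noise (chi-square per degree of freedom 2.89 to 75.8).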

Additional observations from a re-analysis of the deposited data

Results flagged for a closer look

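For 18 genes the log2 fold change in the cells differed from that in the liver by edgeR's test of the difference, at an adjusted p-value under 0.05. All but Orc1 were among the 47 genes of the list tested in both cells and liver. Of those 47 genes, 17 were called, against 36.5% of all 10449 such genes, so the number of calls was not above that of all genes. The direction was uneven, with 16 lower and 1 higher, against 19.4% and 17.1% of all such genes. Cells minus liver, the difference was -2.19 for Cdca7, -2.01 for Pold2, -1.77 for Gins1, -1.42 for Cdt1, -1.36 for Tk1, -1.14 for Lig1 and -1.13 for Dut. It was -1.09 for E2f2, -1.0 for Rfc5, -0.98 for Pola2, -0.94 for Pold1, -0.94 for Rfc2, -0.91 for Mcm7, -0.76 for Rpa2, -0.68 for Dnmt1 and -0.41 for Rrm1. Of these calls Rrm1 was lost in 19 of 21 alternative settings, E2f2 in 9 and Rpa2 in 1. The difference for Pcna was 1.01. Orc1, which was not tested in the liver alone, had a fitted difference of 3.06 that rests on liver libraries with 7, 3 and 3 counts with vehicle and 1, 0 and 0 with esculetin, so its size depends on the prior count. Its call was lost without liver vehicle replicate 1 and without liver esculetin replicate 2 or 3, at fitted values of 2.54 to 2.65 (adjusted p 0.0731 to 0.102).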

How the results depend on the processing

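In the cells 21 of the 33 called genes (19 lower, and Pcna and Ccne2 higher) kept their call in all 15 alternatives, 12 lost it somewhere and none changed sign. E2f1, Slbp, Mcm6, Rfc5 and Rrm1 lost it only under the limma-voom fold criterion. That criterion left 2 genes higher in place of 6 and 10 of the other G1/S control genes lower in place of 19, and called 4 of the list in the liver in place of 0 and 4 genes of the further lists there. Without the filter on low counts Mcm10 was called in the liver, making 1 of the list and 4 of the further lists. That setting called 152 of all 22343 genes higher and 187 lower there. The count of histone genes higher in the cells moved too and is not given, since it depends on which genes pass the filter. DESeq2 called 1 gene of the further lists in the liver. In the last 150 bases of the window the share of genes with the CHR element was 11.6%.

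Leaving out 1 library, the cells had 22 to 30 genes of the list lower and 4 to 6 higher. Of all 13678 to 13793 tested genes, 3209 to 3988 were then lower and 3273 to 3922 higher. The median of the list ran from -0.41, without esculetin replicate 3, to -0.28. The difference to the liver was called lower for 14 to 16 genes of the list. It was called higher for 1 (without liver esculetin replicate 2) to 5 (without liver vehicle replicate 1). Of all 16180 to 16351 genes, 1590 to 2096 were then lower and 1667 to 2634 higher. Calls lost without 1 library were those of Chaf1a (control replicate 2 or 3, esculetin replicate 1 or 2, -0.30 to -0.37), Rpa1 (the same 4 libraries, -0.21 to -0.26), Mcm2 (control replicate 2 or 3, esculetin replicate 2, -0.35 to -0.39), Rfc4 (control replicate 3, esculetin replicate 2, -0.42 and -0.38), Prim2 (control replicate 3, -0.35), Tyms (control replicate 1 or 2, 0.41 and 0.48) and Orc6 (all but esculetin replicate 2, 0.26 to 0.39). Without esculetin replicate 3, Ccne1 (-0.42), Gins4 (-0.32) and Mcm3 (-0.28) became lower, and without control replicate 1 Pola1 (0.50) higher. Library size in place of TMM factors moved the median of all genes in the cells to -0.08.

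Genes near 0 changed sign without ever being called. Library size only gave -0.026 for Cdc6, -0.012 for Mcm10, -0.023 for Prim1 and -0.055 for Fen1. No filter gave -0.0030 for Cdc6, -0.0031 for Prim1 and -0.020 for Fen1, and limma-voom gave -0.11 for Fen1. Without 1 library, Cdc6 ran from -0.0059 through -0.00064 to 0.091, Prim1 from -0.026 to 0.13, Rfc1 from -0.26 to 0.015, Pole from -0.067 through 0.018 to 0.041, Chaf1b from -0.19 to 0.0098 and Fen1 from -0.62 through -0.054 and -0.040 to 0.34. The causes were not tested.

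Same-numbered samples did not deviate together throughout: the correlations were 0.188, -0.0392 and 0.107 in the cells and 0.153, -0.0079 and 0.112 in the liver, so the numbers were not taken as pairs. With a replicate block, 27 genes of the list were lower and 7 higher in the cells, where of all 13277 genes 4043 were lower and 3939 higher. In the liver 0 of the list and 1 gene of the further lists were called, where of all 12813 genes 63 were lower and 60 higher. The difference was called for 16 and 2 genes of the list, where of all 15709 genes 2280 were lower and 2232 higher. Fen1 stood at -0.095 in the cells. At the depth of these libraries, 5 of the 52 genes stayed under the filter in the liver.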
